A study of Mus musculus with 18 samples.

Results

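Islets of floxed mice that had eaten a high-fat diet for 6 weeks were compared with islets of floxed mice of the same age on chow, by RNA sequencing. The comparison takes in 6 of the 18 libraries of the series, 3 on each diet, and every gene symbol listed; 12234 of 24346 listed genes were abundant enough to be tested. All 6 libraries came from isolated islets of C57BL/6 mice aged 14 weeks, labelled as floxed at exon 2 of Cdh13, the gene of the surface protein T-cadherin. Both diets therefore share the floxed allele, and the design text, unlike the sample labels, calls these mice wild-type. The high-fat diet began at 8 weeks of age. Further sets of libraries are used for comparison, namely floxed islets at 8 weeks on chow (3 libraries) and islets lacking exon 2 of Cdh13 at 14 weeks on either diet (3 and 3 libraries). The labels do not name a Cre line, do not say whether islets of several mice were pooled, and do not say that replicates came from separate animals, so each p-value measures the spread between these samples, which may be technical.

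Islets of Langerhans are clusters of hormone-secreting cells in the pancreas. Most of their cells are beta cells, which make insulin and amylin, beside alpha cells (glucagon), delta cells (somatostatin) and PP cells (pancreatic polypeptide), and blood vessels and resident macrophages run between them. The islets lie within exocrine tissue, whose acinar cells make digestive enzymes in very large amounts, and isolation by digestion and picking can leave some acinar tissue on the islets. A high-fat diet makes mice insulin resistant, and islets respond with greater insulin output and, over time, more beta cell mass.

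On the high-fat diet the islets held more transcript of the insulin and amylin genes and less of the glucagon and somatostatin genes. Acinar enzyme and Reg family transcripts were far lower in every high-fat diet library than in any chow library of the same age. The acinar share of floxed islets of 8 weeks on chow lay within the range of the high-fat diet libraries. Interferon gamma and granzyme transcripts were present in all 3 high-fat diet libraries and listed at 0 in all 3 chow libraries. More genes rose than fell in fatty acid oxidation (11 of 22 rose), antioxidant defence (13 of 23), ribosomal proteins (67 of 83) and the respiratory chain (50 of 69). Of macrophage markers 8 of 10 fell, as did 5 of 11 endothelial markers, 10 of 25 actin cytoskeleton genes and 11 of 24 genes of the COPI and COPII vesicle coats. Values are FPKM (fragments per transcript length and sequencing depth), and differences are of log2(FPKM + 1), high-fat diet minus chow, a scale on which low genes show less than their full fold change. Of the tested genes, 1834 were called higher (15%) and 1652 lower (13.5%) by limma at an adjusted p below 0.05, or 28.5% in all.

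**Figure D1:**
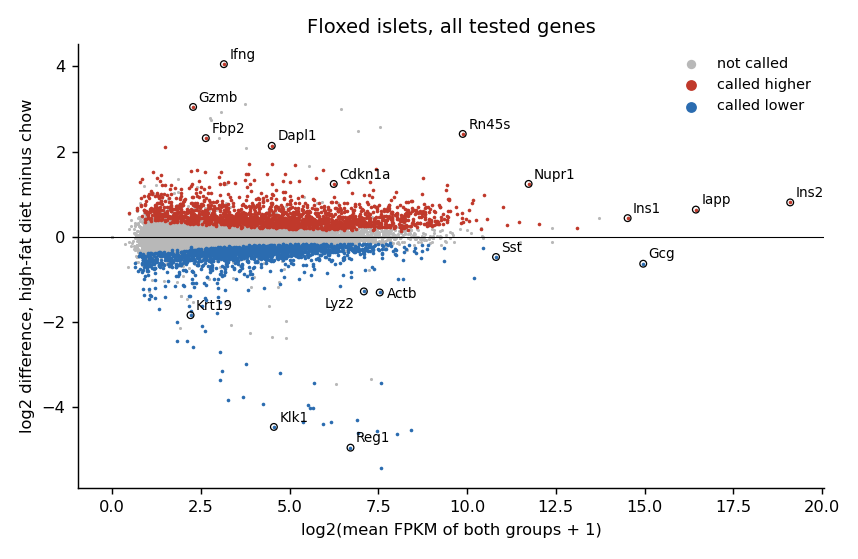
Difference between the diets for every tested gene of floxed islets, against its mean level; the x axis is log2(mean FPKM + 1) over both groups, the y axis the log2(FPKM + 1) difference of 3 high-fat diet and 3 chow libraries. Called genes are coloured, and the cloud of acinar and Reg genes reaches differences such as -4.95 for Reg1 while Ins2, at the far right, lies at 0.81.

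The libraries differed by diet in makeup as well as in single genes. Summed FPKM was 1344590 to 1391940 on the high-fat diet and 941252 to 1047280 on chow, and read totals are unknown, so no depth can be given. The typical gene of each of the 6 libraries lay at 1.01 times its geometric mean over all libraries, so the deposited scale sets the typical gene equal between diets. When each library was instead scaled to the same sum, an alternative added after the data were seen, the median of all tested genes moved to -0.41, 292 genes were called higher and 7984 lower, and 940 of the 1834 higher genes lay below 0. A rise below is therefore a rise relative to the typical gene. Ranges and largest values over the alternatives, given below, leave equal sums out, since that scaling moves all genes. Pearson's r across genes was 0.986 to 0.990 within a diet (6 pairs) and 0.963 to 0.978 between diets (9 pairs). In such bulk samples, fewer cells of a type and less of its RNA per cell cannot be told apart.

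Acinar transcript, the mark of exocrine tissue in islet preparations, differed between the diets. The acinar list (digestive enzymes, their inhibitors and acinar transcription factors, 40 genes) made up 0.0178, 0.0410 and 0.00374% of summed FPKM in high-fat diet replicates 1 to 3 and 0.781, 0.335 and 0.140% in chow replicates 1 to 3. Every chow library lay above every high-fat diet library, and the chow libraries themselves spanned 0.140% to 0.781%. The mean was 20.1-fold lower on the high-fat diet (0.0208% ± 0.0188 against 0.419% ± 0.328, SD, n = 3 each; exact two-sided permutation p = 0.1, the smallest that 3 against 3 allows). Floxed islets of 8 weeks on chow held 0.0139, 0.0329 and 0.0196%, within the range of the high-fat diet libraries. Islets lacking exon 2 showed the same order, with 0.0186% ± 0.00718 on the high-fat diet and 0.315% ± 0.0858 on chow, a 16.9-fold difference (exact p = 0.1).

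**Figure D2:**
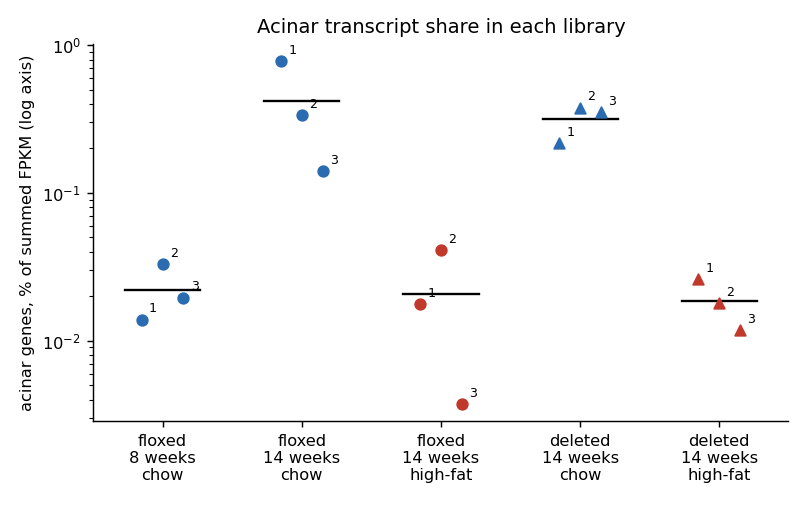
Acinar genes as a percentage of summed FPKM in each library, on a log axis, for floxed (circles) and deleted (triangles) islets; numbers are replicates and bars are group means of 3 libraries. The 3 floxed chow libraries of 14 weeks (0.140% to 0.781%) lie above the 3 high-fat diet libraries (0.00374% to 0.0410%).

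Of 40 acinar genes, 32 were tested and 27 fell, with a median difference of -3.45, beside -0.01 over all tested genes. Some of them, Prss3 among them, passed the filter on low values only through chow libraries of 14 weeks, so count and median are descriptions. The acinar genes summed to 51.6 to 551 FPKM on the high-fat diet and 1470 to 7347 FPKM on chow. Klk1, a tissue kallikrein gene, measured 0.878, 1.85 and 0 FPKM on the high-fat diet and 76.4, 37.4 and 18.5 FPKM on chow. Its groups lay far apart, with chow replicate 1 the highest (log2 difference -4.47, SE 0.852, adjusted p = 0.00218). Gp2, the gene of the main zymogen granule membrane protein, measured 0.958, 0.778 and 0 against 39.8, 21.8 and 8.47 FPKM (-3.77, adjusted p = 9.70e-04). The lipase-related gene Pnliprp2 (-3.16, adjusted p = 0.00193), the trypsin inhibitor gene Spink1 (-3.93, adjusted p = 0.00121) and the trypsin gene Prss3 (listed at 0 in all 3 high-fat diet libraries and at 6.85, 6.76 and 1.71 FPKM on chow) fell too. Trypsin and amylase genes have near-identical copies, so reads may have been split between them. The acinar transcription factor genes Ptf1a and Rbpjl, not tested, were listed at 0 on the high-fat diet and reached at most 0.427 and 0.0927 FPKM on chow. Bhlha15, which beta cells also express, did not pass (0.06, adjusted p = 0.761). Without chow replicate 1 the count of falls was 15.

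The Reg genes, which encode secreted lectin-like proteins of the exocrine pancreas and gut, fell as well. All 5 of 5 tested members were lower, with a median of -3.37. Among the compared libraries, Reg3b and Reg2 reached the filter on low values only on chow, where they were high. The count, the median and the adjusted p-values of these genes are therefore descriptions. Reg1 measured 5.74, 8.12 and 1.72 FPKM on the high-fat diet and 367, 155 and 85.7 FPKM on chow, so the lowest chow library exceeded the highest high-fat diet library (log2 difference -4.95, SE 1.15, adjusted p = 0.00713). Reg3b measured 0.266, 0 and 0 against 30, 15.3 and 6.23 FPKM (-3.83, adjusted p = 6.75e-04), and Reg2 0.151, 0 and 0.124 against 29.4, 10.1 and 3.26 FPKM (-3.37, adjusted p = 0.0128). In all 3 genes chow replicate 1, which held the most acinar transcript, was the highest and chow replicate 3 the lowest, the order of the acinar share. Floxed islets of 8 weeks held 5.10, 25.1 and 7.23 FPKM of Reg1. Without chow replicate 1, 3 of the 5 were called, and Reg2 was no longer among them (-2.66, adjusted p = 0.0554, against adjusted p of 0.00691 to 0.483 over its alternatives). The Reg genes are close paralogs, and reads may be split between them.

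With the mean log2 level of the acinar list as a covariate, 973 genes were called higher (7.95%) and 725 lower (5.93%). Of the 1834 higher calls 890 (48.5%) stayed called higher, and of the 1652 lower calls 634 (38.4%) stayed called lower. The acinar genes make up this covariate, so the loss of most of their calls follows from the fit and is a description. Of the acinar genes only Gp2 and Prss3 then stayed lower, and of the Reg genes 0. The diets do not overlap in acinar level, so the fit draws the covariate's slope from the spread within the 6 groups of the series. Below, a call that ended with this covariate is said to have done so, and in each of those genes the adjusted p with the covariate was the largest over its alternatives.

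The beta cell hormone genes rose. Ins2 (142678656 to 142743381 on chromosome 7, mm10), the more abundant of the mouse insulin genes, measured 725617, 695108 and 726579 FPKM on the high-fat diet and 379371, 404972 and 446586 FPKM on chow. The groups lay wide apart (1.74-fold; log2 difference 0.81, SE 0.0982, adjusted p = 9.12e-06), and floxed islets of 8 weeks lay between them at 513653, 525518 and 523780 FPKM. Ins2 alone made up 52.2% ± 0.511 of summed FPKM on the high-fat diet and 41.4% ± 1.17 on chow (SD, n = 3 each; exact permutation p = 0.1). Iapp, the amylin gene (142298423 to 142303961 on chromosome 6), measured 111516, 107910 and 106188 against 66961, 68935 and 73708 FPKM, again without overlap (log2 difference 0.64, SE 0.0775, adjusted p = 9.07e-06). Ins1 (52264297 to 52265476 on chromosome 19) measured 26457, 26568 and 28108 against 18622, 19819 and 21604 FPKM (log2 difference 0.44, SE 0.0964, adjusted p = 0.00233). With equal sums Ins2 was at 0.33, Iapp at 0.16 and Ins1 at -0.04, so the rise of Ins1 was no larger than that of the summed FPKM. Quantile normalization, which gives the highest ranks the same value in each library, set Ins2 and Iapp to 0 and ended the call of Ins1 (0.36, adjusted p = 0.178, against 1.79e-04 to 0.178 over its alternatives).

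The alpha and delta cell hormone genes moved the other way. Gcg, the glucagon gene (62474530 to 62483650 on chromosome 2), measured 24454, 27740 and 22926 FPKM on the high-fat diet and 40581, 37346 and 38385 FPKM on chow, with every chow library above every high-fat diet library (log2 difference -0.63, SE 0.122, adjusted p = 7.73e-04). Its call ended with quantile normalization (-0.36, adjusted p = 0.178, against adjusted p of 1.72e-04 to 0.178 over its alternatives). Sst, the somatostatin gene (23889573 to 23890958 on chromosome 16), measured 1423, 1502 and 1579 against 1885, 2031 and 2375 FPKM (log2 difference -0.48, SE 0.101, adjusted p = 0.00163). Rbp4, a retinol-binding protein gene of delta cells, fell from 201, 187 and 206 to 111, 139.8 and 113 FPKM (-0.71, adjusted p = 2.29e-05), and the delta cell transcription factor gene Hhex fell too (-0.70, adjusted p = 0.00393). The alpha cell transporter gene Slc38a5 fell (-0.91, adjusted p = 0.00400), a call that ended with the acinar covariate (-0.64, adjusted p = 0.204). Gc, the vitamin D-binding protein gene that alpha cells express, went against its list and rose from 54.5, 57.2 and 59.0 to 135, 140.1 and 143 FPKM (log2 difference 1.28, SE 0.0705, adjusted p = 7.22e-10). Of 8 alpha cell markers 1 rose and 2 fell, and of 6 delta and PP cell markers 3 fell (medians -0.28 and -0.30). Ppy measured 16952, 11100 and 18215 FPKM against 7067, 11964 and 16168 FPKM, overlapped between the diets and did not pass (0.44, adjusted p = 0.505).

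The rest of the beta cell identity list moved both ways. Of 23 tested identity genes 5 rose and 6 fell, with a median of -0.05. Sytl4, the gene of the granule docking protein granuphilin, fell from 85.9, 82.0 and 84.2 to 57.7, 57.1 and 55.0 FPKM, without overlap (log2 difference -0.56, SE 0.0685, adjusted p = 9.12e-06). Pcsk2, a prohormone convertase gene, fell from 509, 462 and 451 to 391, 389 and 354 FPKM (-0.33, adjusted p = 4.30e-04), though not with the acinar covariate (-0.27, adjusted p = 0.0596). Slc2a2, which encodes the glucose transporter GLUT2, measured 28.2, 23.9 and 23.9 against 33.7, 28.8 and 28.6 FPKM (log2 difference -0.25, SE 0.0922, adjusted p = 0.0453). This was a call near the threshold: it ended without high-fat diet replicate 2 (-0.22, adjusted p = 0.145), replicate 3 (-0.22, adjusted p = 0.145), chow replicate 1 (-0.18, adjusted p = 0.208) or chow replicate 2 (-0.29, adjusted p = 0.0565), and with the acinar covariate (-0.13), and its adjusted p ranged from 0.0131 to 0.602. The transcription factor genes Pdx1 (-0.23, adjusted p = 0.0562) and Mafa (-0.24, adjusted p = 0.614) and the maturity marker Ucn3 (-0.05, adjusted p = 0.588) did not pass. Without high-fat diet replicate 2 the list held 3 falls.

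Granins, the acidic proteins that pack secretory granules, rose within the granule and exocytosis list (5 of 20 higher, 1 lower). Scg3 measured 389, 383 and 377 against 277, 259.9 and 256 FPKM (log2 difference 0.53, SE 0.0544, adjusted p = 1.13e-06), and Scg5, the chaperone of Pcsk2, 836, 804 and 780.0 against 559.7, 562 and 604 FPKM (0.49, adjusted p = 4.39e-05). Neither overlapped between the diets. Scg2 (0.35, adjusted p = 1.75e-04) and Chga (0.30, adjusted p = 0.00167) rose less and turned below 0 with quantile normalization (-0.08 and -0.40).

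Ifng, the gene of the cytokine interferon gamma (118441046 to 118445892 on chromosome 10), was listed at 17.5, 13.2 and 16.3 FPKM in the 3 high-fat diet libraries and at 0 in the 3 chow libraries. It was also at 0 in all 3 floxed libraries of 8 weeks. Its limma adjusted p, 1.58e-15, was the smallest of all tested genes. That value draws on groups listed at 0 throughout, which have no spread, and is a description. Gzmb, the granzyme B gene of cytotoxic lymphocytes and natural killer cells, was listed at 6.83, 4.77 and 11.5 FPKM on the high-fat diet and at 0 in every chow library (adjusted p = 1.76e-09). Gzma (1.42, 1.27 and 1.62 FPKM, adjusted p = 7.49e-06) showed the same pattern, as did Gzmc (2.73, 2.07 and 6.08 FPKM) and the chemokine gene Xcl1 (1.48, 1.10 and 2.24 FPKM), both named after their values were seen. Islets lacking exon 2 held 11.2, 11.8 and 12.3 FPKM of Ifng on the high-fat diet and 0 on chow. Of the 12 lymphocyte markers 5 were tested. Ifng, Gzmb, Gzma and Nkg7 among them passed the filter on low values only through high-fat diet libraries. No share of the tested members is therefore given, and the adjusted p-values of these genes are descriptions. The summed level of the list was 22.5 to 33.1 FPKM on the high-fat diet and 2.33 to 3.63 FPKM on chow. The defining T cell genes stayed at or near 0 on both diets: Cd3d was listed at 0 in all 3 high-fat diet libraries, Cd3e at 0 in the other 5 libraries and at 0.346 FPKM in high-fat diet replicate 3, and Cd8a at no more than 0.0291 FPKM. The perforin gene Prf1, not tested, was at 0.360, 0.284 and 0.560 FPKM on the high-fat diet and at 0 on chow. The cells that held these transcripts were not measured.

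Of 13 tested interferon-response genes 2 rose and none fell (median 0.20), a share of rises near the 15% of all tested genes. These were Bst2, the tetherin gene, at 10.8, 17.7 and 15.7 against 5.93, 11 and 8.24 FPKM (0.75, adjusted p = 0.00536), and Rsad2, the viperin gene, at 8.61, 5.07 and 10.8 against 3.34, 7.41 and 3.7 FPKM (0.67, adjusted p = 0.0253), and in both the diets overlapped. Among 16 MHC class I and antigen processing genes 4 rose and 1 fell. H2-T23 measured 85.6, 82.5 and 82.8 against 59.4, 57.3 and 57.2 FPKM (log2 difference 0.52, SE 0.0642, adjusted p = 9.56e-06), and the immunoproteasome gene Psmb9 45.8, 47.6 and 48.7 against 35.2, 37.8 and 34.2 FPKM (0.40, adjusted p = 2.77e-04), without overlap. Of 6 MHC class II genes none passed, and Cd74 was at -0.20, adjusted p = 0.0816. The call of Bst2 ended with the acinar covariate (0.56, adjusted p = 0.211), the length correction described below and a fit of these 6 libraries alone, and that of Rsad2 with the covariate (0.44, adjusted p = 0.411) and without high-fat diet replicate 1 (0.61, adjusted p = 0.0863), replicate 3 (0.46, adjusted p = 0.138), chow replicate 1 (0.49, adjusted p = 0.127) or chow replicate 3 (0.55, adjusted p = 0.103). Their adjusted p ranged from 0.00133 to 0.211 for Bst2 and from 0.00139 to 0.411 for Rsad2 over the alternatives. Without chow replicate 2 the list held 4 rises.

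Macrophage genes fell on the high-fat diet. Of 10 tested markers 8 fell and none rose, with a median of -0.50. Lyz2, the lysozyme gene of myeloid cells, measured 80.0, 69.4 and 85.6 FPKM on the high-fat diet and 174, 199 and 203 FPKM on chow, without overlap (log2 difference -1.28, SE 0.104, adjusted p = 8.96e-08). Lyz1 (-1.25, adjusted p = 1.04e-07), the lysosomal membrane gene Cd68 (-0.54, adjusted p = 9.07e-04) and the endotoxin coreceptor gene Cd14 (-1.16, adjusted p = 5.59e-04) fell too, Cd14 not with the acinar covariate (-0.85, adjusted p = 0.0936). The summed level was 199.6 to 224 against 343 to 394 FPKM. On chow it was lowest in replicate 1 and highest in replicate 3, while the acinar share ran the other way. With the acinar covariate 6 of the 10 were called lower. Whether exocrine carry-over had a part in these falls was not tested. Outside the markers, the lysosomal glycoprotein gene Gpnmb fell from 4.96, 8.46 and 5.01 to 0.905, 1.23 and 1.17 FPKM (-1.73, adjusted p = 3.56e-07), and the monocyte chemokine genes Ccl2 (-1.63, adjusted p = 0.00311) and Ccl7 (-1.45, adjusted p = 3.65e-04) fell. Of 14 inflammatory genes 4 fell and 1 rose, or 2 fell without high-fat diet replicate 1 and 2 without chow replicate 1.

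Endothelial, duct and stromal genes were lower in part. Of 11 endothelial markers 5 fell (median -0.35), among them the angiogenic factor gene Egfl7, at 13.6, 15.2 and 15.3 against 25.5, 25.2 and 28.9 FPKM (log2 difference -0.81, SE 0.109, adjusted p = 2.62e-05), and the VEGF receptor genes Kdr (-0.62, adjusted p = 0.00236) and Flt1 (-0.47, adjusted p = 0.00729). The VE-cadherin gene Cdh5 was at 0.13, adjusted p = 0.413, named after its value was seen. Of 11 duct cell markers 5 fell, among them Krt19, a keratin gene of duct epithelium, at 0.758, 0.786 and 1.25 against 9.86, 5.25 and 3.79 FPKM (log2 difference -1.84, SE 0.301, adjusted p = 3.61e-04), and the claudin gene Cldn4, at 51.2, 57.2 and 47.1 against 126, 106 and 117 FPKM (-1.15, adjusted p = 8.61e-07). Both kept their calls with the acinar covariate. Of 10 stromal and pericyte markers 3 fell, among them the smooth muscle actin gene Acta2 (-1.39, adjusted p = 9.59e-04) and the collagen gene Col1a1 (-1.38, adjusted p = 0.0114; -1.15, adjusted p = 0.0523, without high-fat diet replicate 1, and 0.00448 to 0.0848 over its alternatives). Mgp, the matrix Gla protein gene, rose from 82.4, 109 and 124 to 224, 201 and 240.0 FPKM (1.09, adjusted p = 0.00183), though not with the covariate (1.0, adjusted p = 0.0694). The number of stromal falls ran from 1 without high-fat diet replicate 1 to 7 without replicate 3, and was 5 without chow replicate 1. The matrix gene Tnc, the tenascin C gene, fell from 4.44, 8.01 and 4.84 to 0.933, 1.05 and 1.49 FPKM (-1.62, adjusted p = 4.85e-05).

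The cytoplasmic actin genes moved in opposite directions. Actb measured 100.1, 105 and 111 FPKM on the high-fat diet and 295, 233 and 263 FPKM on chow, without overlap (log2 difference -1.31, SE 0.124, adjusted p = 9.47e-07). Actg1 measured 1426, 1403 and 1350 against 1064, 1054 and 1045 FPKM, also without overlap (log2 difference 0.40, SE 0.0643, adjusted p = 1.51e-04). Its call ended with quantile normalization (0.16, adjusted p = 0.0748, against 7.93e-06 to 0.0748 over its alternatives other than equal sums). With equal sums Actg1 was at -0.07 (limma adjusted p = 0.308). The genes are close paralogs with many processed copies, so reads may be split between them. Of 25 actin cytoskeleton genes 10 fell and 1 rose, and the filamin gene Flna (-0.79, adjusted p = 8.62e-05) and the smooth muscle gene Tagln (-1.16, adjusted p = 0.00127) were among the falls. The summed level of the list overlapped between the diets, at 3958 to 4084 FPKM against 3843 to 4050 FPKM. With the acinar covariate 4 fell, those of Actb, Flna and Tagln included.

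More genes of fatty acid oxidation rose than fell. Of 22 tested members 11 rose and 2 fell, with a median of 0.27, while with equal sums 5 were called higher and 11 lower. Acaa2, which encodes the last enzyme of the mitochondrial oxidation cycle, measured 67.0, 67.2 and 59.8 FPKM on the high-fat diet and 36.1, 34.7 and 33.4 FPKM on chow, without overlap (log2 difference 0.88, SE 0.0812, adjusted p = 3.56e-07). Slc25a20, which carries acylcarnitines into mitochondria, measured 37.7, 35.8 and 34.1 against 19, 19.4 and 18.2 FPKM (log2 difference 0.89, SE 0.0866, adjusted p = 7.06e-07), and the long-chain dehydrogenase gene Acadl 60.5, 58.6 and 63.5 against 42.8, 39.2 and 42.0 FPKM (0.55, adjusted p = 2.91e-06). Cpt1a, the gene of the rate-limiting import step, was at 0.78, adjusted p = 5.00e-06, and Angptl4, an inhibitor of lipoprotein lipase, at 1.15, adjusted p = 1.23e-05, both named after their values were seen. The fatty acid uptake gene Cd36 went the other way, from 13, 13.4 and 15.2 FPKM on chow to 6.08, 5.65 and 8.03 FPKM (log2 difference -0.98, SE 0.110, adjusted p = 3.42e-06). The count was 10 higher and 2 lower with the acinar covariate, and 11 and 2 with a correction for transcript length.

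Lipid synthesis genes were mixed. Acly, which makes cytosolic acetyl-CoA from citrate, fell from 799, 798 and 732 to 519.8, 533 and 522 FPKM, without overlap (log2 difference -0.56, SE 0.0945, adjusted p = 2.40e-04), and the elongase gene Elovl6 fell (-0.54, adjusted p = 0.00190). Dgat2, which makes triglyceride, rose from 7.07, 7.11 and 6.02 to 12.2, 14.1 and 10.7 FPKM (0.78, adjusted p = 1.27e-04). Insig1, which holds back cholesterol synthesis, rose from 27.9, 31.7 and 31.9 to 50, 60.7 and 51.4 FPKM (log2 difference 0.80, SE 0.0876, adjusted p = 2.63e-06). By list, 4 rose and 4 fell of 18 fatty acid synthesis genes, and 3 rose and 2 fell of 25 cholesterol synthesis genes (5 fell without chow replicate 1).

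Of 23 tested antioxidant genes 13 rose and 2 fell (median 0.28), or 4 higher and 11 lower with equal sums. Gpx1, a glutathione peroxidase gene, measured 285, 267 and 285 against 162, 165 and 174 FPKM (log2 difference 0.74, SE 0.0747, adjusted p = 1.08e-06). The superoxide dismutase gene Sod1 measured 276, 269 and 264 against 156, 176 and 168 FPKM (0.69, adjusted p = 4.70e-05), and the glutathione transferase gene Gstm1 783, 711 and 735 against 463, 424 and 442 FPKM (0.74, adjusted p = 1.50e-06). None of these overlapped between the diets, and Gpx2 rose likewise (0.77, adjusted p = 9.29e-06). The transcription factor gene Nfe2l2 itself was at -0.16, adjusted p = 0.0986, named after its value was seen. With the acinar covariate 8 were called higher, those 4 among them.

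Ribosomal protein and respiratory chain genes rose as broad groups, and both are groups of short transcripts. Of 83 cytosolic ribosomal protein genes 67 rose and 1 fell (median 0.50), of 69 nuclear genes of oxidative phosphorylation 50 rose and 1 fell (median 0.33), and of 77 mitochondrial ribosomal protein genes 30 rose and 2 fell (median 0.17). Rpl10 measured 1553, 1459 and 1433 FPKM on the high-fat diet and 695, 829 and 919 FPKM on chow, and Rpl37a 932, 852 and 933 against 423, 503 and 545 FPKM, both without overlap (0.87 and 0.89, adjusted p = 1.86e-06 and 1.86e-06). Rps27l, a p53-induced relative of a ribosomal gene, rose from 394, 418 and 466 to 908, 903 and 930.2 FPKM (log2 difference 1.10, SE 0.0943, adjusted p = 1.43e-07). The complex I gene Ndufb11 measured 269, 251 and 265 against 152, 166 and 182 FPKM (log2 difference 0.65, SE 0.0799, adjusted p = 9.34e-06), and the ATP synthase gene Atp5d 298, 291 and 306 against 201, 212 and 205 FPKM (0.53, adjusted p = 9.56e-06). Ribosomal protein genes have many pseudogene copies, so their reads may be split. With equal sums 23 ribosomal protein genes were called higher and 18 lower, and 6 and 34 of oxidative phosphorylation, while relative to the typical gene their medians were 0.44 and 0.27.

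Transcript length moved with the difference across all genes. With the 12152 genes of known exon length in 5 equal bins, the shortest bin (67 to 1738 bases) had a median of 0.18, with 33.8% called higher and 6.33% lower. The longest bin (from 5310 bases) had a median of -0.08, with 5.88% higher and 17.7% lower. Spearman's rho across genes, which are not independent replicates, was -0.29, and -0.16 for the diet difference of islets lacking exon 2. After the trend with length was removed, an alternative added after the data were seen, 1483 genes were called higher (12.1%) and 1632 lower (13.3%). The ribosomal protein genes then had a median of 0.24 with 47 higher and 5 lower, oxidative phosphorylation 0.07 with 21 and 9, and mitochondrial ribosomal proteins 0.03 with 13 and 8. The part of length in these rises cannot be told apart from that of the groups themselves.

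**Figure D3:**
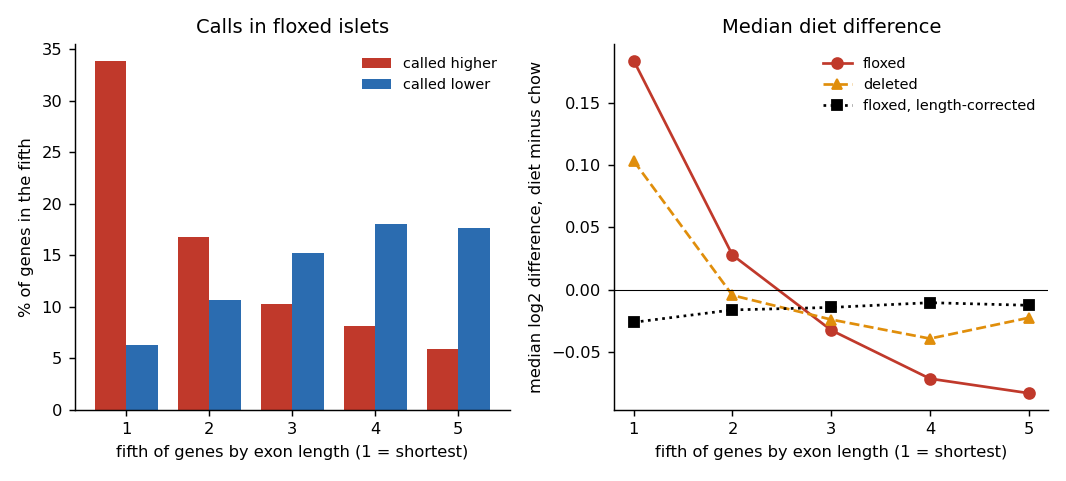
Left, the share of genes called higher or lower on the high-fat diet in floxed islets in each of 5 bins of exon length; right, the median log2 difference of each bin in floxed and deleted islets and in floxed islets after the length trend was removed. In floxed islets the median runs from 0.18 in the shortest bin to -0.08 in the longest.

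Some non-coding RNAs rose with the diet. Rn45s, the ribosomal RNA precursor, measured 1652, 1471 and 1609 FPKM on the high-fat diet and 225, 333 and 343 FPKM on chow (5.26-fold; log2 difference 2.41, SE 0.156, adjusted p = 5.97e-08). The nuclear RNA Malat1 measured 676, 577 and 627 against 231, 275 and 213 FPKM (1.39, adjusted p = 7.85e-06) and the small nucleolar RNA host Snhg1 45.1, 45.6 and 35.6 against 13.7, 18.1 and 12.1 FPKM (1.47, adjusted p = 1.44e-07), while Neat1 did not pass (-0.05, adjusted p = 0.806); these 3 were named after their values were seen. In Rn45s, Malat1 and Snhg1 every high-fat diet library lay above every chow library. Their part in the other differences was not tested.

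Genes of the unfolded protein response, by which cells adjust the folding capacity of the endoplasmic reticulum, did not move as 1 group: 3 of 25 rose and 6 fell (median -0.08). Derl3, which takes part in degrading misfolded proteins (75893413 to 75895941 on chromosome 10), measured 9.66, 10.4 and 11.9 FPKM on the high-fat diet and 3.87, 3.57 and 2.81 FPKM on chow, without overlap (log2 difference 1.4, SE 0.169, adjusted p = 8.35e-06). Among the falls were Hspa5 (BiP) at 1271, 1307 and 1219 against 1513, 1483 and 1577 FPKM (log2 difference -0.27, SE 0.0608, adjusted p = 0.00285), the disulfide isomerase gene Pdia4 at 159, 163 and 154 against 229, 219.8 and 228 FPKM (-0.51, adjusted p = 8.12e-06) and calreticulin, Calr, at 317, 333 and 315 against 400.3, 413 and 411 FPKM (-0.34, adjusted p = 0.00109). The falls of Hspa5 and Calr ended with the acinar covariate (-0.15 and -0.23, adjusted p = 0.292 and 0.149), and the rise of Derl3 and the fall of Pdia4 did not. With that covariate 1 member of the list was called lower. Nupr1, a stress-induced chromatin protein gene (126623249 to 126630861 on chromosome 7), rose from 2058, 2076 and 1934 to 4847, 4645 and 4840 FPKM, the spread within each diet being small beside the gap (2.36-fold; log2 difference 1.24, SE 0.0942, adjusted p = 4.61e-08). The stress transcription factor gene Atf4 rose less (0.31, adjusted p = 0.00166). Of 19 integrated stress response genes 5 rose and 4 fell (3 and 2 without high-fat diet replicate 1).

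Some promoters of the unfolded protein response list hold a known element, and genes with it were called in either direction or not at all. The promoters of 3 such genes are shown, 250 bases before to 50 after the start (RefSeq, GRCm38.p6). The ER stress response element, searched as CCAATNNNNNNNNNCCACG on both strands, was in 9 of 21 list promoters found in that table and in 0.119% of its 32851 promoters. Of the 9 genes 2 were called higher, 3 lower and 4 neither. Capitals mark the element, which starts 156, 126 and 65 bases before the start of Derl3 (chr10:75893148-75893447 on the plus strand; 1.4), Creld2 (chr15:88819396-88819695 on the plus strand; 0.32) and Hspa5 (chr2:34771840-34772139 on the plus strand; -0.27); Creld2 was chosen after its value was seen. A match describes the letters and is not a bound site.
Derl3: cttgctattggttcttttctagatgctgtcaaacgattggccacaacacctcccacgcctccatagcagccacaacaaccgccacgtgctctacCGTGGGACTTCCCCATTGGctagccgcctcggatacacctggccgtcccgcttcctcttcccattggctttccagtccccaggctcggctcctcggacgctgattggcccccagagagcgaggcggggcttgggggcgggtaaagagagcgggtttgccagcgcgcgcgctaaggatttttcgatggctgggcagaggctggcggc
Creld2: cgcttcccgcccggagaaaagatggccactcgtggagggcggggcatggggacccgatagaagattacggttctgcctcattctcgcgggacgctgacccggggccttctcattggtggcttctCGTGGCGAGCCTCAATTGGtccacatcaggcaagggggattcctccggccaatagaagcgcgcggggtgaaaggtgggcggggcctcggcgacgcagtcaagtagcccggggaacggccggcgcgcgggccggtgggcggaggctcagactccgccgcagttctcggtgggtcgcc
Hspa5: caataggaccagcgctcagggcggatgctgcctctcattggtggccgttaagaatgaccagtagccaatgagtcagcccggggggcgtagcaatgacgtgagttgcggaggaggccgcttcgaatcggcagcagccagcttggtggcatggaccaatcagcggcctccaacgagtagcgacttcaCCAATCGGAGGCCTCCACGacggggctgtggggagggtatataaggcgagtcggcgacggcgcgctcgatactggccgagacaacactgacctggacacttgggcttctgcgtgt

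Genes of the secretory pathway moved both ways. Of 28 translocation and N-glycosylation genes 12 rose and 5 fell (median 0.16), but 7 were higher and 8 lower with quantile normalization, and 2 and 22 with equal sums. The translocon-associated gene Ssr4 measured 771, 728 and 739 against 409.7, 482 and 493 FPKM (log2 difference 0.70, SE 0.0785, adjusted p = 3.98e-06) and the signal peptidase gene Spcs1 364, 356 and 353 against 200.3, 219.9 and 246 FPKM (0.69, adjusted p = 6.26e-06), both without overlap and both still called with the covariate and the length correction. Of 24 COPII and COPI coat genes, which bud vesicles from the endoplasmic reticulum and the Golgi, 11 fell and 3 rose (median -0.10). The COPII gene Sec23a fell from 16.3, 15.5 and 15.8 to 11.1, 9.89 and 10.3 FPKM (log2 difference -0.56, SE 0.0845, adjusted p = 8.16e-05), and the COPI gene Copa from 157, 159 and 146 to 116, 123 and 111 FPKM (-0.40, adjusted p = 3.08e-04). Copz2 rose (0.68, adjusted p = 1.93e-05). Coat genes called lower numbered 3 with the acinar covariate and 6 without chow replicate 1.

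Some mitosis genes, at low levels on chow, rose. Of 20 listed, 8 passed the filter on low values and the others, Mki67 among them, were not tested. Ccnb1 and Cdk1 reached the filter only in the high-fat diet libraries of floxed islets, where they were high, so no share of the tested members is given. The adjusted p-values of Ccnb1 and Cdk1, with or without the acinar covariate, are descriptions. Ube2c, a ubiquitin-conjugating enzyme of the anaphase-promoting complex, measured 8.73, 6.05 and 3.09 FPKM on the high-fat diet and 0.955, 1.62 and 1.24 FPKM on chow (log2 difference 1.54, SE 0.264, adjusted p = 3.71e-04). Its lowest high-fat diet library, replicate 3, still lay above every chow library. The cyclin gene Ccnb1 measured 1.54, 1.31 and 1.56 against 0.362, 0.239 and 0.525 FPKM (0.85, adjusted p = 3.30e-04), Cdk1 1.81, 1.21 and 1.17 against 0.314, 0.507 and 0.470 FPKM (0.74, adjusted p = 0.00214), and Cdc20 4.16, 1.33 and 2.70 against 0.396, 0.958 and 1.05 FPKM (1.0, adjusted p = 0.00232). With the acinar covariate Ube2c and Ccnb1 stayed called, and Cdk1 (0.67, adjusted p = 0.0884) and Cdc20 (0.52, adjusted p = 0.302) did not. Inhibitors of the cell cycle rose too: Cdkn1a, the p21 gene, measured 105, 104 and 106 against 40.7, 42.8 and 48.9 FPKM (log2 difference 1.24, SE 0.102, adjusted p = 1.04e-07), and Cdkn1b, the p27 gene, 6.05, 5.47 and 5.34 against 3.13, 2.45 and 2.86 FPKM (0.80, adjusted p = 3.12e-04). The cyclin gene Ccnd2 fell (-0.30, adjusted p = 0.00574), though not with the covariate (-0.14, adjusted p = 0.426). Of 17 S phase genes 1 rose and 3 fell (1 without chow replicate 2), with the nucleotide-pool gene Dut at 45.2, 43.9 and 39.4 against 28.9, 28.0 and 29.5 FPKM (0.55, adjusted p = 5.79e-06).

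The cell cycle homology region, a short promoter element of genes active in mitosis, was searched as TTTGAA on both strands. It was in 5 of 7 promoters of tested mitosis genes matched in the RefSeq table (GRCm38.p6) and in 17.9% of all promoters there. The promoter of Ube2c, the gene of the list with the largest difference, is shown (chr2:164769679-164769978 on the plus strand), with the match, 29 bases before the start, in capitals.
Ube2c: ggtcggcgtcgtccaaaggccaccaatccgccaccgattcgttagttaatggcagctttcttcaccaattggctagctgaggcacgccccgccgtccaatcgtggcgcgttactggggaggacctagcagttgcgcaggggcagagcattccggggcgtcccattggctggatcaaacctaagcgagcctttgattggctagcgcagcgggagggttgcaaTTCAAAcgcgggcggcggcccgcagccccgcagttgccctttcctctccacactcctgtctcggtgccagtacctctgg

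Among the other largest rises outside the acinar genes were several of genes that are low on chow. Fbp2, a fructose-bisphosphatase gene of muscle, measured 9.89, 9.04 and 9.05 FPKM on the high-fat diet and 0.638, 1.16 and 1.52 FPKM on chow (log2 difference 2.31, SE 0.174, adjusted p = 4.61e-08). Dapl1 measured 35.5, 35.8 and 35.3 against 8.26, 9.31 and 5.05 FPKM (log2 difference 2.13, SE 0.153, adjusted p = 2.67e-08), the calcium-binding protein gene Necab2 21.9, 21.8 and 19.9 against 5.75, 5.38 and 6.31 FPKM (1.71, adjusted p = 2.08e-07), and the beta-defensin gene Defb1 102, 87.0 and 83.9 against 25, 33.4 and 31.7 FPKM (1.57, adjusted p = 5.81e-07). In none of them did the diets overlap, and each kept its call with the acinar covariate. Gjd2, the gene of connexin 36, which couples beta cells electrically, rose from 7.91, 7.71 and 13.7 to 35.9, 29.3 and 34.7 FPKM (log2 difference 1.71, SE 0.224, adjusted p = 6.25e-05). Among the largest falls, the pancreatic disulfide isomerase gene Pdia2 (0.828, 1.13 and 0.723 against 16.0, 8.98 and 2.92 FPKM; -2.21, adjusted p = 0.00629) and Sprr1a (-2.11, adjusted p = 0.00972) followed the order of the acinar share over the chow libraries, and both calls ended with the covariate (-0.39 and -1.05, adjusted p = 0.556 and 0.381). Inhba, an activin subunit gene, measured 0.781, 2.63 and 5.05 against 10.8, 10.5 and 10.9 FPKM (-1.79, adjusted p = 0.00276), and Gfra3, a coreceptor gene of the GDNF family, 1.98, 4.63 and 3.61 against 10.6, 10.8 and 9.72 FPKM (-1.41, adjusted p = 3.72e-05); both kept their calls with the covariate (-2.53 and -1.55), and that of Inhba ended in a fit of these 6 libraries alone (-1.79, adjusted p = 0.0585, against 2.82e-04 to 0.0585 over its alternatives).

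Other lists held fewer calls or moved both ways. Of 13 heat shock genes 7 rose and none fell, or 1 and 7 with equal sums, among them Hsp90aa1 at 182, 192 and 181 against 97.2, 101 and 116 FPKM (log2 difference 0.82, SE 0.0679, adjusted p = 1.04e-07); the count was 4, 3 and 4 without high-fat diet replicate 1 or 2 or chow replicate 2. Of 16 glycolysis genes 4 fell and none rose (2 without high-fat diet replicate 1 and 1 without chow replicate 3), and of 37 proteasome genes 5 rose and 7 fell, with Psmd11 at 56.3, 59.1 and 61.8 against 92.8, 90.7 and 94.2 FPKM (log2 difference -0.64, SE 0.0607, adjusted p = 4.72e-07). Of 17 islet receptors 3 rose and 2 fell; the adrenergic receptor gene Adra2a rose (0.72, adjusted p = 2.23e-04; 0.40 and adjusted p = 0.117 with the acinar covariate) and the somatostatin receptor gene Sstr2 fell (-0.92, adjusted p = 3.95e-04). Of 18 clock genes 5 fell and 1 rose (3 fell without chow replicate 3). Of 14 genes that beta cells normally keep low 5 fell and none rose (2 without high-fat diet replicate 1 and 3 without chow replicate 2), with Oat at 2.92, 4.65 and 5.53 against 8.77, 9.36 and 10.3 FPKM (-1.0, adjusted p = 3.57e-04). Cdh13 itself, the floxed gene, measured 1.38, 1.17 and 1.43 against 1.63, 2.06 and 1.33 FPKM and did not pass (-0.19, adjusted p = 0.417).

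**Figure D4:**
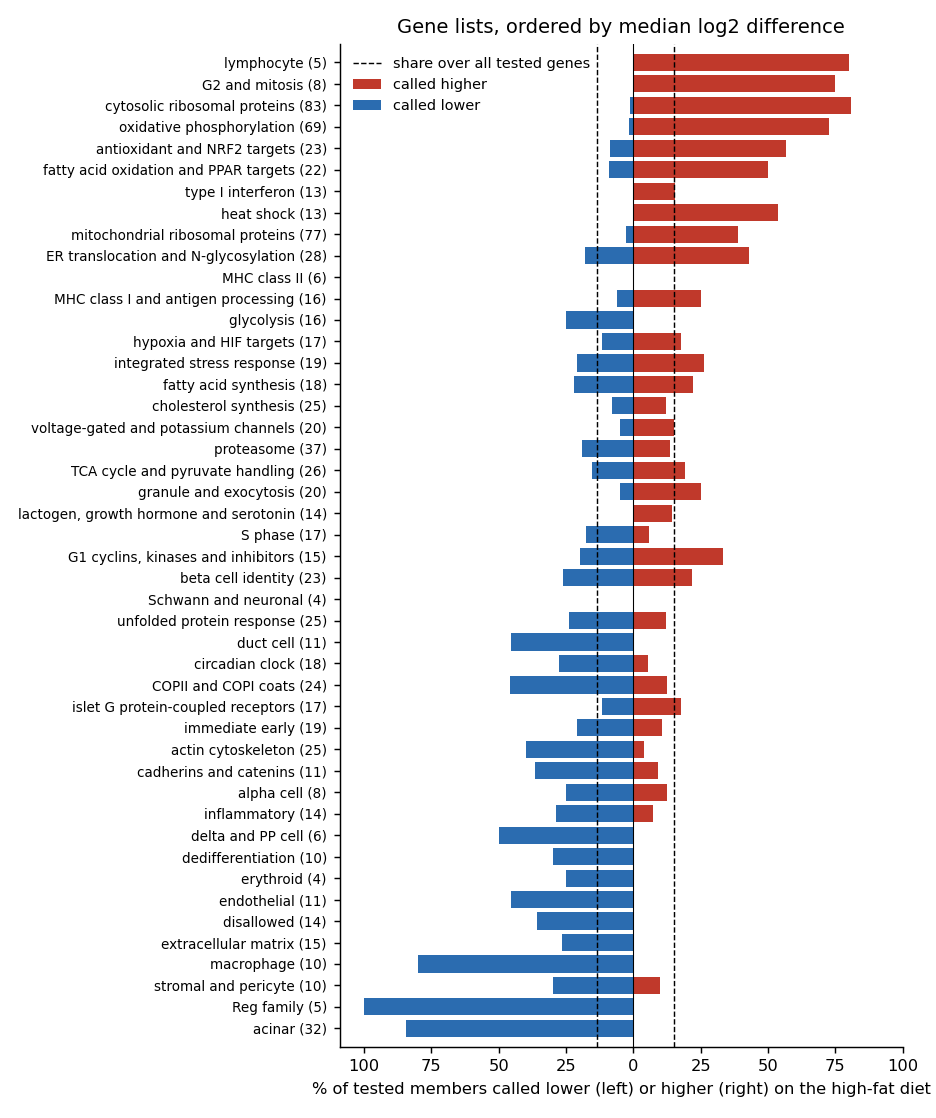
Share of the tested members of each gene list called higher (right) or lower (left) on the high-fat diet in floxed islets, ordered by the median log2 difference; the number tested is in brackets, and dashed lines give the share over all tested genes (15% and 13.5%). Lists with fewer than 4 tested members are left out, and 27 of 32 acinar genes and 67 of 83 ribosomal protein genes fall on opposite sides. The mitosis and lymphocyte bars include genes that passed the filter on low values only through the high-fat diet. The acinar and Reg family bars include genes that, in floxed islets of 14 weeks, met it only on chow.

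The same diet comparison in islets lacking exon 2 of Cdh13 shares no library with that in floxed islets. There 1107 genes were called higher (9.05%) and 723 lower (5.91%). Of the floxed rises 656 (35.8%) were also called higher in deleted islets and of the floxed falls 403 (24.4%) were also called lower, and 1513 (82.5%) and 1424 (86.2%) had a mean difference of the same sign. Spearman's rho across all tested genes was 0.527. The difference between the genotypes passed for 432 genes (3.53%), with the floxed difference above the deleted one for 258 (2.11%) and below it for 174 (1.42%). The count was 268 without floxed chow replicate 1, 277 without floxed high-fat diet replicate 3 and 278 without floxed chow replicate 2.

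The differences of Klk1, Ins2 and Ifng between the diets had the same sign in both genotypes. None of 32 acinar genes passed the test of the difference, and Klk1 was at -4.47 in floxed and -3.45 in deleted islets (difference -1.02, adjusted p = 0.739). Ins2 rose by 0.74 in deleted islets (difference 0.07, adjusted p = 0.859) and the differences of Ifng lay 0.38 apart (adjusted p = 0.203). Sst fell in floxed islets and rose in deleted islets, from 1735, 1759 and 1349 to 2909, 2657 and 2556 FPKM there (difference -1.23, adjusted p = 4.69e-05), and Rbp4 did the same (0.55 in deleted islets; difference -1.26, adjusted p = 1.97e-05). Gcg was at 0.32 in deleted islets, where it did not pass (adjusted p = 0.0817), and its difference between the genotypes passed (-0.96, adjusted p = 0.00405). Slc2a2 rose by 0.80 in deleted islets (difference -1.05, adjusted p = 9.78e-05).

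Nupr1 fell in deleted islets on the high-fat diet, from 2868, 3369 and 2852 to 2265, 2429 and 2355 FPKM, where it rose in floxed islets (difference 1.60, adjusted p = 1.11e-06). Tmem37 (1.26 in floxed, -0.40 in deleted islets) and Pamr1 (0.72 and -0.25) were called in opposite directions as well, with differences of 1.65 and 0.97 (adjusted p = 2.21e-06 and 2.08e-06). Gc, Necab2, Derl3 and Degs2 rose in floxed islets alone among the calls, at 0.05, -0.04, -0.12 and -0.10 in deleted islets, and the difference passed for each (1.22, 1.74, 1.52 and 1.03). The difference of Ube2c passed as well (1.85, adjusted p = 0.00895). Prss53 (-0.75 against 0.11), the splicing factor gene Srsf3 (-0.68 against 0.02) and Tmsb15b2 (-0.39 against 0.60) lay lower in floxed than in deleted islets, with differences of -0.85, -0.70 and -0.98.

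**Figure D5:**
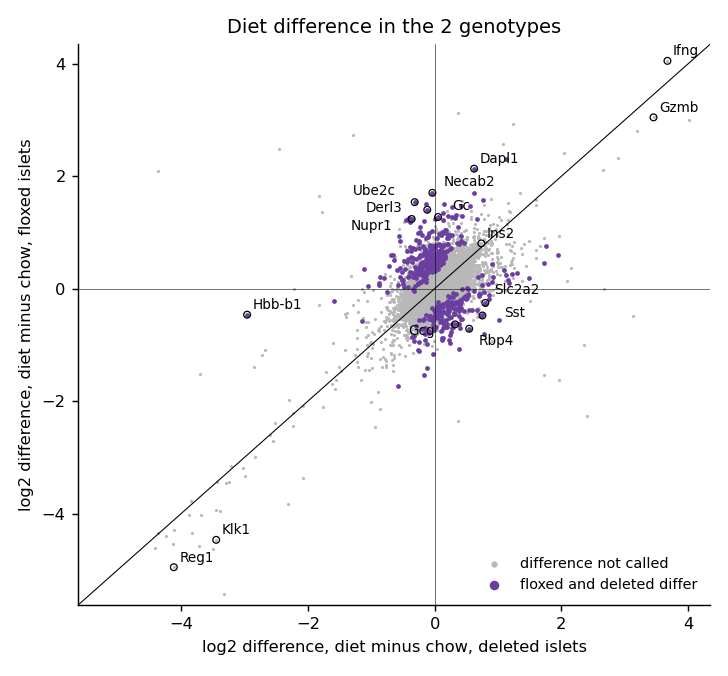
Diet difference of every tested gene in deleted islets (x axis) and floxed islets (y axis), in log2(FPKM + 1), high-fat diet minus chow; the line marks equal values and purple points are the 432 genes whose difference between genotypes passed. Ins2 lies near the line at 0.81 against 0.74, and Nupr1 lies above it at 1.24 against -0.36.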

How the data were processed

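RNA of isolated islets was extracted as total RNA (Qiagen miRNeasy) and made into libraries with SMART-Seq HT and Nextera kits, per the labels' protocols; neither kit marks strand. The submitters' processing notes name Cufflinks 2.2.1, the aligners TopHat2 2.0.13 and Bowtie2 2.2.3, the toolkit SAMtools 0.1.19 and build mm10; for settings and annotation, nothing is stated in the sources used here. The deposited values, 1 per gene symbol and library, were taken as FPKM made by the authors with Cufflinks, from the tool list and from the values, since no header names the unit. Read depth is unknown, so no count model or counting interval was used.

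Differences were tested on log2(FPKM + 1) with limma 3.58.1 (statmod 1.5.0, R 4.3.3) with means of all 6 groups of 3 libraries, a trended robust variance and Benjamini-Hochberg adjustment over the 12234 genes that reached 1 FPKM in 3 or more libraries; calls have an adjusted p below 0.05. Shares were tested by exact permutation. The fit was tested on simulated data. Named genes were the main hormone and beta cell genes, the 15 largest rises and 15 largest falls with groups apart, up to 6 acinar and Reg genes, up to 4 called members of each list by p, and the 5 smallest interaction p-values in each direction. The members and lists were chosen with earlier results of these data known. Of 24346 symbols, 23310 matched GENCODE M21 (GRCm38) by symbol and 665 by a synonym, which gave positions and exon lengths. Alternatives were the pseudocount, filters, scaling, quality weights, a replicate block, an acinar covariate, a fit of the compared groups alone and each library left out, and, added after the data were seen, equal sums and a length correction. Ranges over the alternatives of a gene leave equal sums out. Tables were made with pandas 2.3.3 and numpy 2.4.6 (Python 3.11.15), and plots with matplotlib 3.10.9.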

Additional observations from a re-analysis of the deposited data

Results flagged for a closer look

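The diet differences of 49 of the named genes differed between floxed and deleted islets by the interaction test (limma, adjusted p below 0.05). Of all tested genes 3.53% did; the 206 named genes were chosen in part for the smallest p of this same test and for the largest floxed differences, so their count is a description only. Values in brackets are the floxed minus the deleted log2 difference, over 3 libraries in each of 4 groups. The floxed difference was the higher for 27 genes and the lower for 22.

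Higher in floxed islets with means of opposite sign in the genotypes were Necab2 (1.74), Ube2c (1.85), 1190002F15Rik (1.65), Ccnb1 (1.09), Cdk1 (1.13), Cdc20 (1.25), E2f1 (0.81), Derl3 (1.52), Nupr1 (1.60), P4ha2 (0.82), Pamr1 (0.97), Tmem37 (1.65) and Degs2 (1.03). Ccnb1 and Cdk1 reached the filter on low values only in floxed high-fat diet libraries, so their differences are descriptions. Higher with means of the same sign, or with a floxed difference at or below 0, were Fbp2 (1.18), Dapl1 (1.51), 8430408G22Rik (1.07), Defb1 (0.81), Gc (1.22), Hbb-b1 (2.50), Dut (0.52), Cdkn1a (0.57), Sec11c (0.43), Scg2 (0.30), Trpm4 (0.49), Insig1 (0.61), Rps27l (0.74) and Hsp90aa1 (0.35).

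Lower in floxed islets with means of opposite sign were Gcg (-0.96), Sst (-1.23), Pdx1 (-0.57), Slc2a2 (-1.05), Sytl4 (-0.68), Pcsk2 (-0.45), Rbp4 (-1.26), Hhex (-1.11), Th (-0.61), Fev (-1.07), Kcnk3 (-1.04), Sstr2 (-1.14), Higd1a (-1.20), Psmd1 (-0.35), Tmsb15b2 (-0.98), Prss53 (-0.85) and Srsf3 (-0.70). Lower with means of the same sign were Gpnmb (-1.16), Cyr61 (-1.37), Gfra3 (-1.29), Cd14 (-1.12) and Cd36 (-0.86). The delta cell genes Sst, Rbp4 and Hhex and the alpha cell gene Gcg stood among those of opposite sign.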

How the results depend on the processing

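Of 206 named genes 196 were called, and 112 of these kept their call in every alternative that tested them, equal sums apart. With equal sums only the sign relative to the median of all tested genes was compared for named genes, and no call was checked. Over all tested genes, 290 of the 1834 higher calls (15.8%) stayed called higher with equal sums. The call was lost by 64 with the acinar covariate (31 of them with it alone), by 36 with some library left out, by 16 in a fit of the compared groups alone and by 13 with the length correction. Counts of calls in floxed islets were 1698 (973 higher, 725 lower) with the acinar covariate and 8276 (292 higher, 7984 lower) with equal sums, which moves the median of all tested genes to -0.41. Over libraries left out they ran from 2594 to 2951 (higher 1379 to 1618, lower 1166 to 1384). The difference between genotypes was called for 268 to 406 genes over libraries left out (above 0 for 167 to 241, below for 101 to 165), for 778 (457 and 321) with quality weights, and for 106 below 0 with equal sums. The acinar share differed by -0.398 percentage points, or -0.537 to -0.217 without 1 library.

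Signs turned in few places, among called named genes and list medians larger than the spread between libraries. Equal sums were taken here relative to the median of all tested genes. Without that shift, 940 of the genes called higher lay below 0 with equal sums. Quantile normalization set Ins2 and Iapp to 0, and gave Scg2 -0.075 (adjusted p = 0.302), Chga -0.40 (adjusted p = 0.00160) and the integrated stress response a median of -0.061. The length correction gave medians of -0.047 for MHC class I, -0.033 for MHC class II and -0.0011 for fatty acid synthesis, which ran from -0.0010 (without high-fat diet replicate 3) to 0.0982 over libraries left out. The stromal median was 0.53 when a gene had to average 5 FPKM, which left fewer genes. The cause was not tested for the rest.

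Replicate numbers in the labels name samples only. Deviations of same-numbered floxed libraries correlated across genes by 0.124, 0.0779 and 0.134, and each high-fat diet library correlated best with the chow library of its own number, a hint from the data and not from the design. With the replicate block 3392 genes were called (1792 higher, 1600 lower), and 1 of the 196 calls was lost.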

Other observations

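Cell contact and matrix genes held more falls than rises on the high-fat diet in floxed islets, by limma over all tested genes. Among the cadherin and catenin genes, which join cells to each other, the counts were 1 of 11 higher and 4 lower. The catenin genes Ctnnd1, at 11.7, 11.8 and 11.5 FPKM against 16.1, 17.4 and 14.8 FPKM on chow (log2 difference -0.43, SE 0.0861, adjusted p = 0.00105), and Ctnna1 (-0.36, adjusted p = 8.72e-04) fell, and the falls of the list numbered 2 without any 1 of high-fat diet replicate 3, chow replicate 1 and chow replicate 2. The matrix list had 0 of 15 higher and 4 lower, among them the collagenase inhibitor gene Timp3 (-0.57, adjusted p = 0.00143) and the collagen crosslinking enzyme gene Lox (-0.63, adjusted p = 0.00792; 0.122 with the acinar covariate, the largest over its alternatives). The matrix falls numbered 2 without any 1 of high-fat diet replicate 1, high-fat diet replicate 2 and chow replicate 2, and 8 without high-fat diet replicate 3. A count of 2 of 15 is near the share of falls over all tested genes.

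Ion channel genes of the beta cell membrane were mostly not called, with 3 of 20 higher and 1 lower. The cation channel gene Trpm4 measured 5.16, 5.03 and 5.07 FPKM against 2.91, 2.85 and 3.00 FPKM on chow (log2 difference 0.63, SE 0.0889, adjusted p = 4.16e-05), without overlap. The potassium channel gene Kcnk3, also known as TASK1, measured 1.56, 2.30 and 2.38 FPKM against 3.88, 4.46 and 4.38 FPKM (log2 difference -0.78, SE 0.140, adjusted p = 4.45e-04). Higd1a, a mitochondrial gene that hypoxia induces, fell from 18.2, 17.0 and 22.4 to 9.12, 10.6 and 8.32 FPKM (log2 difference -0.96, SE 0.142, adjusted p = 7.26e-05), while the hypoxia list as a whole moved both ways (3 of 17 higher and 2 lower; 1 rose without chow replicate 2). The succinate dehydrogenase gene Sdha fell (-0.30, adjusted p = 0.00164) and the mitochondrial citrate carrier gene Slc25a1 rose (0.38, adjusted p = 6.33e-05), with 5 of 26 higher and 4 lower in the list of the citric acid cycle, and 2 higher without either high-fat diet replicate 1 or chow replicate 2. Fev, a transcription factor gene of serotonin neurons and immature islet cells, fell from 3.60, 3.30 and 4.34 to 1.97, 1.19 and 1.91 FPKM (-0.83, adjusted p = 5.27e-04).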
